A study of Drosophila melanogaster with 6 samples.

Results

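The Osiris genes described here are 10 members of an insect gene family (Osi2, Osi3, Osi6, Osi7, Osi9, Osi14, Osi15, Osi18, Osi19 and Osi20), taken from a list by name out of the 15125 genes that could be followed in these data. They were measured in imaginal leg discs of Drosophila melanogaster of the genotype white [1118], a strain that lacks eye pigment and serves as a common reference background. A leg disc is a folded sac of epithelium that grows inside the larva and unfolds into an adult leg at metamorphosis. The discs were dissected from wandering larvae of the last instar (wL3), before the rise of ecdysone that starts metamorphosis, and from prepupae at 2 h after pupal formation (2h APF). PolyA RNA was sequenced from 3 libraries per stage, no other treatment or genotype was used, and the number of animals pooled in a library is not given in the sources used here. One protocol label speaks of embryos; the tissue labels and the study's methods give leg discs, and these were followed. The libraries held between 24395318 and 33373176 estimated counts, and libraries of the same stage were further apart than sampling noise allows (chi-square per gene between 8.74 and 33.7). Nothing in the labels says that the libraries of a stage came from separate dissections, so the p-values measure only the spread between these libraries.

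Osiris proteins are found in insects and most carry a signal peptide that sends them into the secretory pathway. They are made mainly by epithelia that secrete cuticle, the chitin and protein coat that is laid down anew at each molt, and most of the genes lie side by side in 1 cluster at the triplo-lethal locus. In the fly embryo, Osi9, Osi15 and Osi19 take part in the maturation of the tracheal tubes, and Osi23, also called gore-tex, shapes the cuticle pores of olfactory hairs. Around the transition from larva to prepupa the leg disc everts, and its epithelium goes on to secrete the pupal cuticle.

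All 10 genes lie in the cluster on chromosome arm 3R, which holds 22 of the 25 annotated Osiris genes and spans 168 kb, from 6173549 to 6341424 in BDGP6.54, the fly genome build of the annotation used here. The 10 genes are all transcribed on the forward strand, as are 20 of the 22 genes of the cluster, and they take places 3 to 22 in its order. Osi2 lies at 6209373 to 6213493, Osi3 at 6215832 to 6218199, Osi6 at 6234708 to 6237181, Osi7 at 6248994 to 6251683 and Osi9 at 6260211 to 6262105. Further along follow Osi14 at 6299128 to 6300738, Osi15 at 6301804 to 6303653, Osi18 at 6330248 to 6331809, Osi19 at 6335362 to 6337196 and Osi20 at 6340095 to 6341424. They are small genes, of 1330 to 4121 bases from end to end and 1 to 5 exons, that encode proteins of 214 to 390 codons with the stop codon left out. Osi7 is the one listed gene with a single exon. Each of 7 genes has 1 transcript among the measured targets, and Osi2, Osi3 and Osi19 have several.

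The comparison of wL3 with 2h APF asked which of these genes changed as the disc entered metamorphosis. At wL3 the 10 genes were at 3.73 CPM or less in every library. At 2h APF 9 of the 10 genes were higher in every library than in any wL3 library, beside 26.5% of all genes with at least 1 count. Among these 9, Osi19 had at most 3 counts in any library. Osi7 rose 802-fold and became the most abundant gene of the family per length. Osi6 rose 169-fold, Osi14 15.1-fold and Osi9 5.75-fold, where Osi6 and Osi9 had only 11 and 14 counts at wL3 in all. Osi3 and Osi15 rose from at most 3 counts per library. Osi18, Osi19 and Osi20 went from 0 counts in every wL3 library to between 1 and 53 counts per library. Osi2 alone had overlapping stages and a lower mean at 2h APF. Levels here and below are CPM (counts scaled to library size, with edgeR's TMM correction between libraries), and a gene was called where edgeR's quasi-likelihood test gave an adjusted p under 0.05 and a log2 fold change beyond 1.

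Of the 10 genes, 6 were called higher at 2h APF (Osi3, Osi6, Osi7, Osi9, Osi14 and Osi15), 1 was tested and not called (Osi2), and 3 were below the filter on low counts and had no test (Osi18, Osi19 and Osi20). Over the whole data set, 871 of 8942 tested genes were called higher, or 9.74%. Osi3, Osi6, Osi9 and Osi15 passed the filter only through their 2h APF libraries, so for these the count of calls is not read against that share. Without regard to the filter, 26.5% of the 12156 genes with at least 1 count had every 2h APF library above every wL3 library, beside the 9 of 10 genes here. For a single gene with 3 libraries against 3, an exact two-sided permutation test gives p = 0.1 when the stages do not overlap, and no smaller value is possible. In whole discs, more cells that express a gene and more RNA per cell cannot be told apart.

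**Figure D1:**
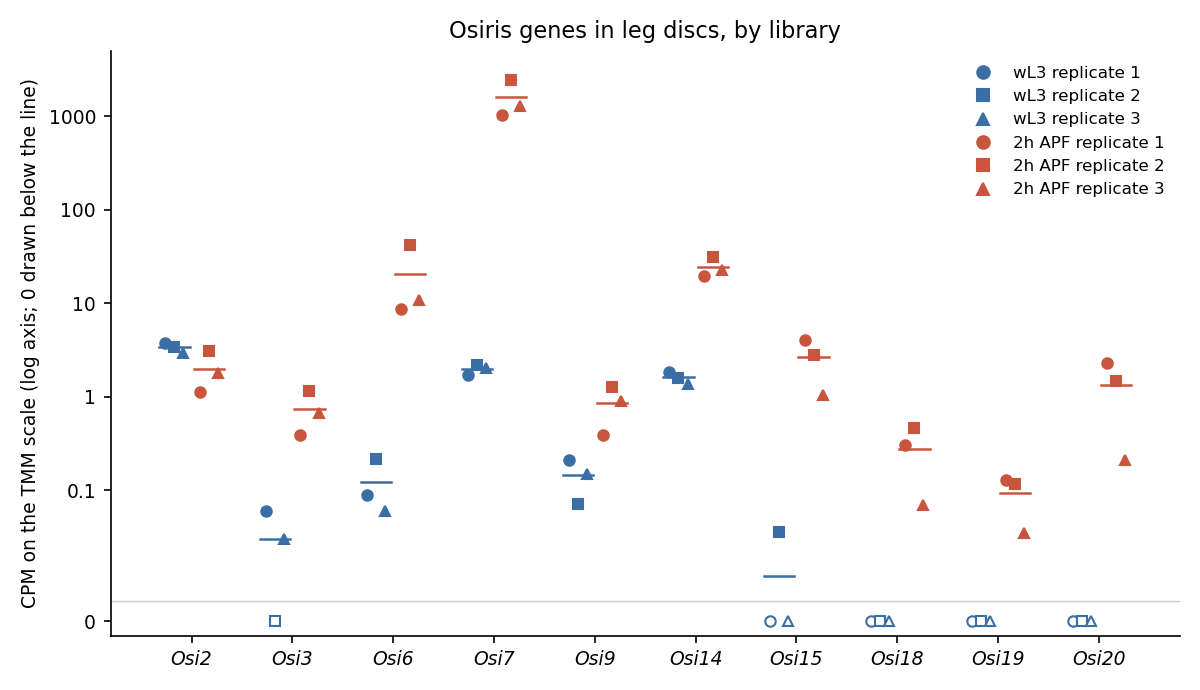
CPM of each listed Osiris gene in the 6 libraries (log axis, with 0 drawn as open symbols below the grey line); symbols are libraries, horizontal bars are the mean of 3 libraries, blue is wL3 and red is 2h APF. The red points lie above all blue points for every gene except Osi2, and Osi7 at 2h APF, between 1037 and 2442 CPM, stands far above the rest.

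Osi7 was measured at 1.71, 2.20 and 2.05 CPM in wL3 replicates 1, 2 and 3. At 2h APF it reached 1037, 2442 and 1292 CPM in replicates 1, 2 and 3, so the stages were far apart in every library. The mean went from 1.99 ± 0.249 to 1590.3 ± 748 CPM (SD, n = 3 each), with a log2 fold change of 9.65 ± 0.46 (SE) and an adjusted p of 3.76e-06. By log2 fold change, Osi7 ranked 3 among the 8942 genes tested. Its 2h APF libraries held 23880, 63104 and 36860 counts, so counting error at that stage is small beside the spread between libraries. At wL3 it had only 57, 61 and 68 counts. The ratio of the summed counts, scaled for depth, was 811 with an exact 95% interval of 702 to 941, which covers counting error only.

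Osi14 started from a similar level and rose less. It was measured at 1.86, 1.59 and 1.38 CPM at wL3 and at 19.6, 30.9 and 22.8 CPM at 2h APF, with no overlap. This was a log2 fold change of 3.92 ± 0.21 (adjusted p = 6.11e-06), the smallest standard error among the listed genes. Osi6 was near the detection limit at wL3, with 0.0901, 0.216 and 0.0602 CPM from 3, 6 and 2 counts. At 2h APF it reached 8.68, 42.1 and 10.7 CPM, and replicate 2 stood apart at 4.85 times the level of replicate 1. The log2 fold change of Osi6 was 7.40 ± 0.94 (adjusted p = 3.78e-04), which became 6.31 without 2h APF replicate 2 and 8.01 without wL3 replicate 2, and the call was kept in both.

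Osi9, 1 of the genes of tracheal tube maturation, rose to a low level. It was measured at 0.210, 0.0721 and 0.15 CPM at wL3, from 7, 2 and 5 counts, and at 0.391, 1.28 and 0.912 CPM at 2h APF, from 9, 33 and 26 counts. The stages did not overlap, and the log2 fold change was 2.52 ± 0.59 (adjusted p = 0.00725). Osi3 had 2, 0 and 1 counts at wL3 and 9, 30 and 19 counts at 2h APF, where it was measured at 0.391, 1.16 and 0.666 CPM. It was called higher (adjusted p = 0.00202), and its size is given as a bound, since a fitted fold change over so few counts depends on the model. A floor of 3 counts in each wL3 library corresponds to 0.0962 CPM on average. Against it, the 2h APF mean of Osi3 was at least 7.68-fold higher, or 5.49-fold without 2h APF replicate 2. The ratio of the summed counts, scaled for depth, was 23.5 with an exact 95% interval of 7.67 to 117, which covers counting error only.

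Osi15, another gene of tracheal tube maturation, had 1 count in the 3 wL3 libraries together. At 2h APF it had 94, 73 and 30 counts, or 4.08, 2.82 and 1.05 CPM. It was called higher (adjusted p = 3.66e-04) and was at least 27.6-fold higher against the same floor of 3 counts per library. That bound was 20.1-fold without 2h APF replicate 1. The ratio of the summed counts was 239.9, and with a single wL3 count its exact 95% interval ran from 42.6 to 9522. Osi14, whose end lies 1065 bases before Osi15, had 152 counts in the same wL3 libraries.

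The 3 listed genes at the far end of the cluster were not seen at wL3, with 0 counts in each library. Osi20 had 53, 38 and 6 counts at 2h APF, or 2.30, 1.47 and 0.210 CPM, and was at least 13.8-fold higher. Osi18 had 7, 12 and 2 counts, or 0.304, 0.464 and 0.0701 CPM. Its mean was at least 2.90-fold higher, but replicate 3 alone lay below the wL3 floor of 0.0962 CPM. Osi19, also a gene of tracheal tube maturation, had 3, 3 and 1 counts, which lies within the floor of 3 counts per library, so no fold is given. Its total of 7 counts has an exact 95% Poisson interval of 2.81 to 14.4 counts. None of the 3 entered the test. The bound for Osi20 falls to 8.74-fold without 2h APF replicate 1, and that for Osi18 to 1.94-fold without 2h APF replicate 2.

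**Figure D2:**
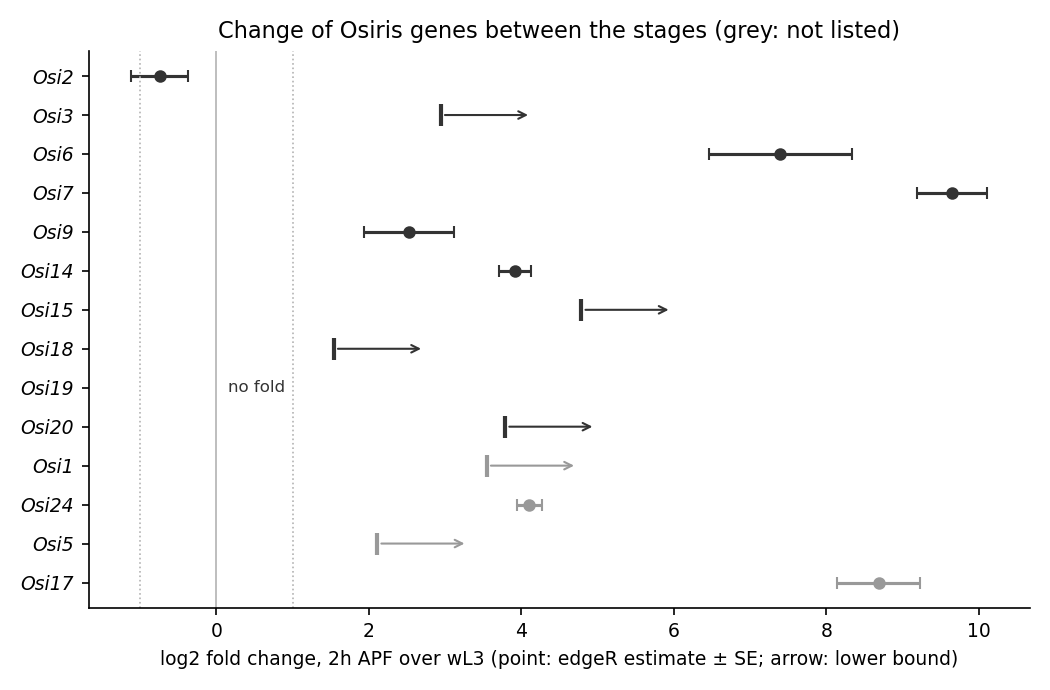
Log2 fold change of 2h APF over wL3 for the 10 listed Osiris genes (black) and for Osi1, Osi24, Osi5 and Osi17 (grey). Points are edgeR estimates with their standard error, arrows start at the lower bound set by 3 counts per wL3 library, and dotted lines mark log2 fold changes of -1 and 1; Osi7 lies furthest to the right at 9.65 and Osi2 is the one gene left of 0, at -0.74.

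Osi2 was the most abundant of the 10 genes at wL3 by TPM (an abundance that also corrects for transcript length), at 3.24 ± 0.365 TPM (SD, n = 3), and the one gene that did not rise. It was measured at 3.73, 3.43 and 2.95 CPM at wL3 and at 1.13, 3.10 and 1.79 CPM at 2h APF, where replicate 2 lay within the wL3 range. The log2 fold change was -0.74 ± 0.37 with an adjusted p of 0.114, so no change was called. Without 2h APF replicate 2 it was -1.20 and passed the threshold (adjusted p = 0.0191). Over all alternatives the adjusted p of Osi2 ranged from 0.00198 to 0.254.

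The 3 annotated transcripts of Osi2 share 4 exons and the same coding bases, and each has its own non-coding first exon, so they start at different places. FBtr0078593, whose first exon lies at 6211189 to 6211375, was the main form at wL3, with 2.64, 2.62 and 2.76 CPM, and was measured at 0.601, 0.625 and 0.482 CPM at 2h APF. Tested on its own, this form was called lower, with a log2 fold change of -2.25 ± 0.31 (adjusted p = 0.00198, edgeR on transcripts), and the stages did not overlap. It held 79.6% of the Osi2 counts at wL3 and 27.9% at 2h APF. FBtr0078592, with its first exon at 6210999 to 6211160, was estimated at 0.269, 0 and 0 CPM at wL3 and at 0, 1.83 and 1.31 CPM at 2h APF. It held 53.9% of the Osi2 counts at 2h APF, yet its estimate in 2h APF replicate 1 was 0, so the stages overlapped and no change is stated for it. FBtr0310413, which starts furthest upstream at 6209373, had 17.6% of the counts at wL3 and 18.3% at 2h APF when the libraries of a stage are pooled. By library it was uneven, at 0.816, 0.804 and 0.187 CPM at wL3. In 2h APF replicate 1 it was estimated at 0.528 CPM, in replicate 2 at 0.639 CPM and in replicate 3 close to 0. These forms differ only by the 104 to 187 bases of their first exons, and the split of the reads between them is an estimate from few counts.

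**Figure D3:**
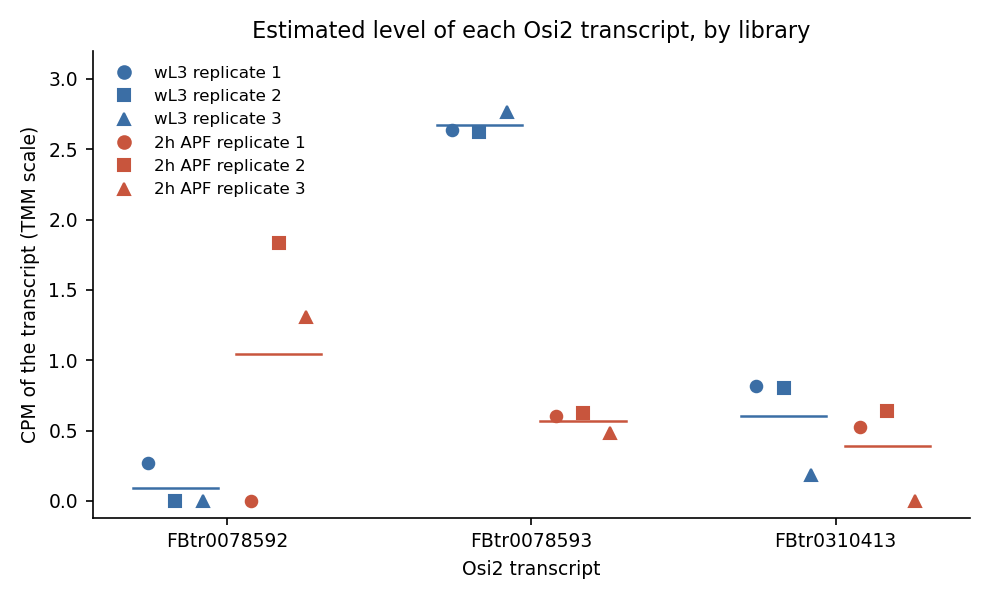
Estimated CPM of each annotated Osi2 transcript by library (blue wL3, red 2h APF; bars are means of 3 libraries). FBtr0078593 lies between 2.62 and 2.76 CPM in the wL3 libraries and between 0.482 and 0.625 CPM in the 2h APF libraries, while FBtr0078592 is above 1 CPM in only 2 of the 2h APF libraries.

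The transcripts of Osi3 differ in the length of the last exon, outside the coding bases. The longer form, FBtr0310414, held 87.1% of the 58 Osi3 counts at 2h APF when the libraries are pooled. In replicates 1, 2 and 3 it was estimated at 4.48, 27.0 and 19.0 counts, beside 4.52, 2.96 and 0 for the shorter form. This split is an estimate from few counts. For Osi19, all 7 counts went to FBtr0301493, which lacks the 27 coding bases that FBtr0081707 adds to the second exon, and none to FBtr0081707.

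By length-corrected level, the order of the 10 genes at 2h APF was Osi7, Osi14, Osi6, Osi15, Osi2, Osi20, Osi9, Osi3, Osi18 and Osi19. Osi7 was at 756 ± 349 TPM, Osi14 at 33.2 ± 7.56 TPM, Osi6 at 18.3 ± 16.6 TPM and Osi15 at 3.14 ± 1.83 TPM (SD, n = 3 each). The remaining 6 genes had mean levels from 0.126 to 1.94 TPM. The lowest library of Osi7 was above the highest of Osi14, and the lowest of Osi6 above the highest of Osi15. The ranges of all other neighbours in this order overlapped across libraries. Compared within each library, Osi14 was still above Osi6, Osi3 above Osi18 and Osi18 above Osi19 in all 3, while the remaining neighbours changed order in at least 1 library. At wL3 the order began with Osi2, Osi14 and Osi7, the last at 0.947 ± 0.126 TPM. Among all 15125 genes, Osi7 moved from rank 8322 by mean TPM at wL3 to rank 167 at 2h APF, and Osi14 from rank 7738 to rank 3506. Osi7 held between 11.2% and 16.4% of the summed TPM of the 10 genes at wL3, and this share grew to a range of 91.7% to 93.1% at 2h APF, whereas Osi2 held 47.4% to 49.2% at wL3 and 0.206% to 0.259% at 2h APF. Summed over the 10 genes, the level was 5.98 to 7.23 TPM in the wL3 libraries and 544 to 1244 TPM in the 2h APF libraries.

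**Figure D4:**
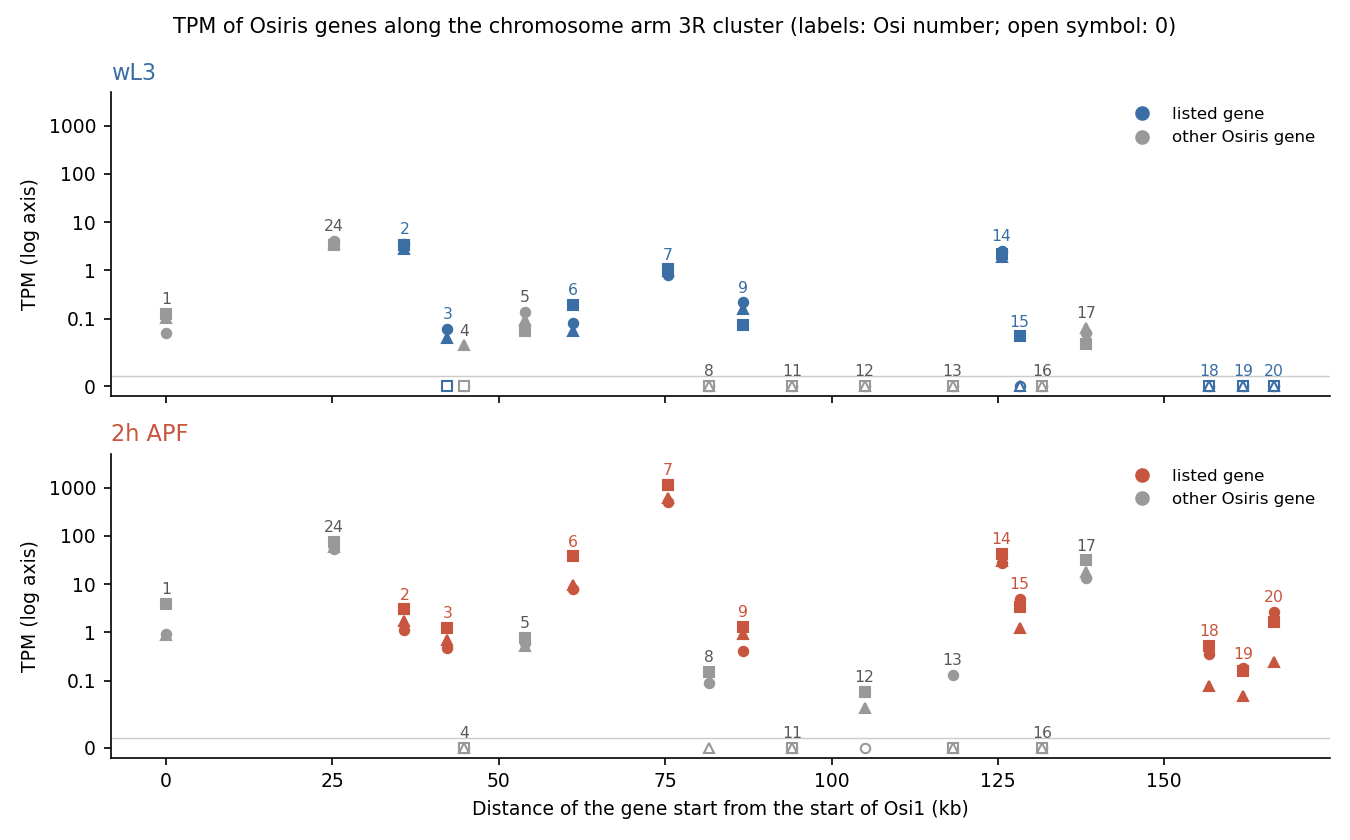
TPM (log axis, 0 as open symbols below the grey line) of the 20 cluster genes with values, against the distance of each gene start from the start of Osi1 in kb; the upper panel is wL3, the lower panel 2h APF, each symbol is 1 library, numbers are the Osi numbers and grey marks genes outside the list. At 2h APF the high genes (Osi24, Osi6, Osi7, Osi14 and Osi17) are spread along the cluster, with genes at or near 0 such as Osi4, Osi8, Osi11, Osi12, Osi13 and Osi16 between them.

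The 2h APF libraries differed among themselves in an order that was not the same for all 10 genes. Osi2, Osi3, Osi6, Osi7, Osi9, Osi14 and Osi18 were highest in replicate 2. The ratio of replicate 2 to replicate 1 was 1.58 for Osi14, 2.35 for Osi7 and 4.85 for Osi6. This library was also the highest for 67.7% of the 871 genes called higher over the whole data set, so 7 of 10 genes is close to the general share. Osi15 and Osi20 were instead highest in replicate 1, then replicate 2, then replicate 3, an order found in 9.18% of the 871 genes. Osi19 had 3, 3 and 1 counts in replicates 1, 2 and 3, so its replicates 1 and 2 cannot be put in order. For Osi20 the highest library was 10.9 times the lowest, for Osi15 3.88 times and for Osi19, on 7 counts, 3.72 times. Osi18 was also lowest in replicate 3, where it had 2 counts. The median ratio of the highest to the lowest library over the 871 genes was 1.29, and the 90th percentile was 2.24. Osi20 had 6 counts in its lowest library, so its ratio also holds counting error.

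**Figure D5:**
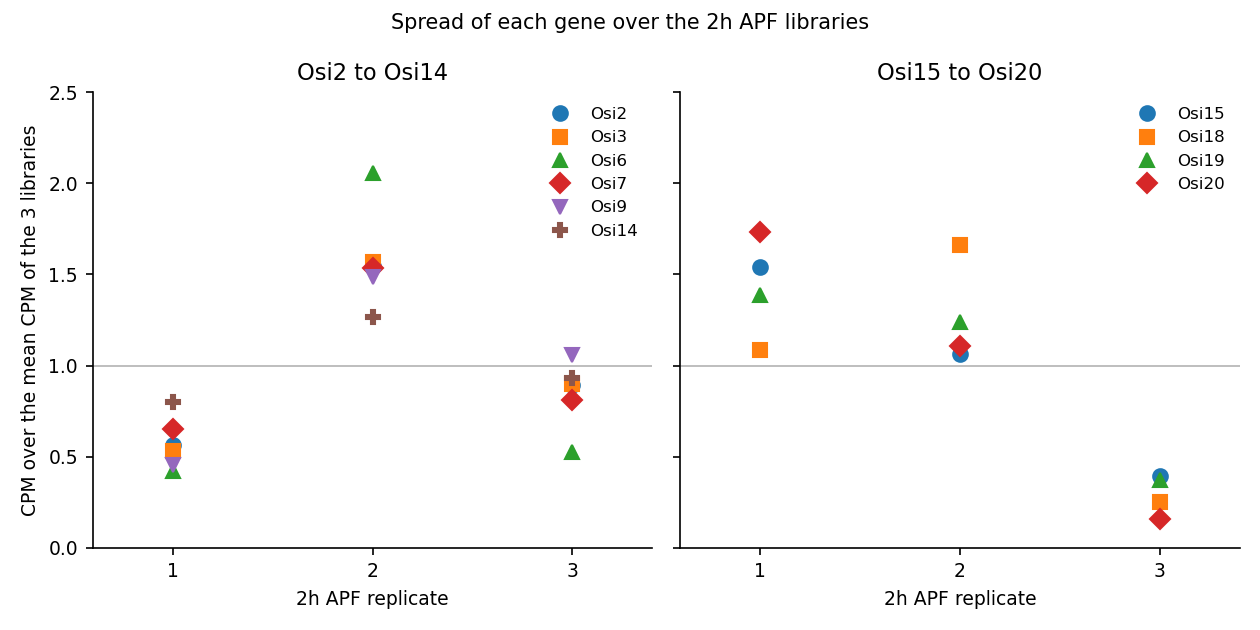
CPM of each listed gene in the 3 libraries at 2h APF, divided by the mean of these libraries (left, Osi2 to Osi14; right, Osi15 to Osi20; the grey line marks 1). Replicate 2 is the highest point for every gene on the left, and replicate 3 is the lowest for every gene on the right.

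Leg disc markers were detected in all libraries, 10 of 10, with a summed level of 2327 to 2349 CPM at wL3 and 2067 to 2135 CPM at 2h APF. Of 7 tracheal markers, all but trh and btl are also made in discs. Among the 7, 2 were called higher (kni and knrl), and the sum was 1242 to 1266 CPM at wL3 and 1968 to 2513 CPM at 2h APF. Most of this sum is uif, at 927, 954 and 948 CPM at wL3 and 1544, 2065 and 1642 CPM at 2h APF, which was under the fold threshold, as were vvl and dysf with log2 fold changes of 0.01 and -0.31. The defining tracheal genes trh (109 to 114 CPM at wL3, 111 to 119 CPM at 2h APF) and btl (9.47 to 10.9 CPM, then 13.1 to 14.4 CPM) were not called. Fat body markers summed to between 35.3 and 3710.2 CPM at wL3 and to 576 CPM in 2h APF replicate 1, 873 CPM in replicate 2 and 194 CPM in replicate 3. All 6 fat body markers were lowest in replicate 3. Of these, 4 (Lsp1alpha, Lsp1beta, Lsp1gamma and Lsp2, the last at 98.2, 85.2 and 33.8 CPM) have the library order of Osi15 and Osi20, while Fbp1 and Fbp2 were highest in replicate 2. That order was not particular to fat body. It was also found in 2 of 6 hemocyte markers (NimC1 and srp) and in 1 salivary gland marker (Sgs1), on at most 1 count per library. Among the lists given below, 3 of 20 apical matrix and chitin genes and 1 of 12 ecdysone genes had it. Of the matrix genes, obst-E had 3, 1 and 1 counts, so its replicates 2 and 3 cannot be put in order by counts. Salivary gland markers (5 of 6 measured) fell from between 50.9 and 194 CPM to between 0.175 and 0.271 CPM, and hemocyte markers from between 144 and 298 CPM to between 21.2 and 28.6 CPM. Muscle markers summed to 55.0 to 258 CPM at wL3 and to 40.0 to 41.4 CPM at 2h APF, where Tm2 was at 0 in every library. Neuron markers summed to 84.0 to 117 CPM at wL3, then to 107 to 125 CPM. The part of these tissues in the levels of the Osiris genes was not tested.

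Of the 13 other Osiris genes with values, only 3 passed the filter on low counts, and all 3 were called higher at 2h APF. Osi1 and Osi17, with at most 5 counts in any wL3 library, passed it only through their 2h APF libraries. This count is therefore not read against the 9.74% called higher over all tested genes. Osi24, the second gene of the cluster, went from 8.32, 6.74 and 7.22 CPM to 106, 156 and 122 CPM, a log2 fold change of 4.10 ± 0.17 (adjusted p = 2.38e-06). Osi17, which lies between Osi15 and Osi18, went from 0.120, 0.0721 and 0.15 CPM to 31.6, 75.1 and 42.6 CPM, a log2 fold change of 8.68 ± 0.55 (adjusted p = 1.18e-05). Osi17 was highest in replicate 2 and lowest in replicate 1, the library in which its listed neighbour Osi15 was highest. Osi1, at the start of the cluster, had 1, 2 and 2 counts at wL3 and 12, 60 and 15 counts at 2h APF, and was at least 11.7-fold higher, or 5.44-fold without 2h APF replicate 2.

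The other 10 had few counts or none. Osi5 was not tested and had 3, 1 and 2 counts at wL3 and 9, 13 and 10 counts at 2h APF, at least 4.31-fold higher. Osi11, Osi16 and Osi21 had 0 counts in all 6 libraries, and Osi4, Osi8, Osi12, Osi13, Osi22 and Osi23 had at most 3 counts in any library. Osi10a and Osi10b were not analysed here. Within the cluster the annotation places 7 other genes that are not transposable elements, of which 4 had values. NPFR, CG15597, CG15594 and CG31560 were at or below 0.331 CPM in every library and none was tested.

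Lists of genes around cuticle and ecdysone are given beside the whole data set, in which 9.74% of the tested genes were called higher and 8.9% lower. The lists were chosen with earlier results of these data known, so their counts do not test for an excess over these shares. Of 20 genes of the apical matrix and chitin, 19 were tested, and 9 were called higher and 2 lower, with a median log2 fold change of 0.87 against -0.04 over all genes tested. The zona pellucida domain proteins dy, m and dyl, which tie the epithelium to its matrix, had log2 fold changes of 6.33 ± 0.27, 5.05 ± 0.14 and 4.26 ± 0.59 (adjusted p at most 5.73e-04). zye, a protein of the same class, fell by 4.34 ± 0.52 on the log2 scale. The chitin synthase gene kkv changed by 0.59 ± 0.05, under the fold threshold. Of 12 ecdysone genes, 6 were called higher and 2 lower (median 0.82). The nuclear receptor gene Hr3 had a log2 fold change of 4.79 ± 0.73 and ImpE1, an ecdysone-induced gene of imaginal discs, one of 2.39 ± 0.16, whereas the early gene Eip74EF fell by 1.84 ± 0.06.

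Among the genes of the Pri pathway, pri/tal, whose small peptides act with the ubiquitin ligase Ubr3 on the transcription factor Svb, rose by 6.79 ± 0.32 on the log2 scale (adjusted p = 3.76e-06). It was measured at 29.6, 12.9 and 26.5 CPM at wL3 and at 2517, 2681 and 2472 CPM at 2h APF. ovo, the gene of Svb, changed by -0.55 ± 0.08 and Ubr3 by 0.21 ± 0.03, both under the fold threshold.

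The 5 genes outside the family whose profile over the 6 libraries was nearest to the mean profile of the 7 tested Osiris genes, among 7306 genes with at least 100 counts per library on average, were CG7173, CG17786, Ugt50B3, CG12017 and vri. Nearness was the root mean square distance of log2(CPM + 0.5), centred on each gene's mean, and it was 0.136, 0.141, 0.160, 0.196 and 0.197. CG7173 had 3.55, 3.03 and 2.89 CPM at wL3 and 29.5, 44.6 and 26.6 CPM at 2h APF. vri, a bZIP transcription factor gene, had 68.0, 67.1 and 62.8 CPM and then 496, 648 and 554 CPM. For both, the stages were apart and replicate 2 was the highest of the 2h APF libraries. The mean profile that the genes were picked to match has these same traits, so they follow from the choice and are no separate result.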

How the data were processed

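PolyA RNA of leg discs was sequenced by the authors as paired reads from a strand-specific kit and assigned with kallisto to Ensembl 74 transcripts and further lincRNAs; processing notes also name sleuth and dm3, and whether strand was used is not stated. The files deposited by the authors give 42506 targets, each with an estimated count and a TPM value per library, not scaled between libraries. By FlyBase transcript identifier, 27011 of them belong to 15259 genes of Ensembl release 115 (BDGP6.54), and these hold 96.4% to 96.6% of the counts of a library; 64 groups of genes with identical values were merged, which left 15125. For each gene the deposited estimated counts of its targets were added and rounded.

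The stages were compared over all genes with edgeR 4.0.16 in R 4.3.3 (TMM, filterByExpr, quasi-likelihood test, Benjamini-Hochberg adjustment, no replicate block), which was also tested on simulated data. The standard error is the log2 fold change divided by the square root of F. Where a stage had at most 3 counts in every library, the mean of the other stage was set against 3 counts per library as a bound. Alternatives were DESeq2 1.42.0, limma 3.58.1 on log2 TPM with pseudocounts of 0.5 and 0.1, total library size, other filters, TPM-scaled counts, transcripts, stricter thresholds, the replicate block and leaving out each library. Python 3.11.15 with numpy 2.4.6, pandas 2.3.3, scipy 1.17.1 and matplotlib 3.10.9 made tables and plots.

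The Osiris genes and the gene lists were chosen with earlier results of these data known. The text names the 10 listed genes, the other Osiris genes, called genes inside the cluster, 2 to 4 examples of each list and the 5 genes nearest in profile; others were chosen after their values were seen. The authors' Sleuth results were not used. No sequence is shown, as no sequence was used here.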

Additional observations from a re-analysis of the deposited data

How the results depend on the processing

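Of 107 log2 fold changes of the 7 tested Osiris genes under the alternatives, 105 kept their direction and call. The exceptions were both of Osi2, which was called lower as its most abundant transcript alone (-2.25) and without 2h APF replicate 2 (-1.20). The number of listed genes called higher was 6. It was 9 without a filter, where Osi18, Osi19 and Osi20 entered the test, and 2 (Osi7 and Osi14) where 10 counts were required in every library, which removes genes near 0 at wL3. With the most abundant transcript alone it was 5, as Osi3 was then not tested. Leaving out each library gave 6 to 7 genes, the additional gene being Osi20. The other Osiris genes called higher numbered 3, but 5 without a filter and 1 with at least 10 counts in every library, and 4 when leaving out each library in turn, the additional gene being Osi5. Over all genes, 1667 were called and 624 at an adjusted p under 0.01 and a log2 fold change beyond 2. With the most abundant transcript of each gene, 6 of the 10 genes kept their place in the order of levels. Scaling to total library size moved the median log2 fold change of all genes from -0.04 to -0.16. Same-numbered libraries of the stages did not deviate together (correlations of -0.0030, 0.147 and -0.255), so the numbers were not taken to pair samples; with the replicate block 6 listed genes, 3 other Osiris genes and 1618 genes in all were called, and no call of a listed gene changed.

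Depth limits the low genes: 3 counts correspond on average to 0.0962 CPM (wL3) or 0.117 CPM (2h APF), so Osi18, Osi19 and Osi20 cannot be told from a low level at wL3, and the size of the rise of Osi3 and Osi15 is known only as a bound. Osi6 and Osi9 had 11 and 14 counts at wL3 in all, and the size of their rise depends on the setting.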

Other observations

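The nearest measured genes outside the cluster were looked at after the values were seen. CG31559, which starts 23.4 kb before Osi1, went from 7.75 ± 1.24 to 95.9 ± 8.76 CPM (SD, n = 3 each), a log2 fold change of 3.62 ± 0.12 (edgeR adjusted p = 1.63e-06). CG1077, between CG31559 and Osi1, averaged 0.0274 CPM at 2h APF and less at wL3, and was not tested. On the far side, CG17917 and CG10298 were at or near 0 at both stages, and CG17919, whose start lies 170.5 kb from that of Osi1, was at 69.8 ± 5.96 and 116 ± 7.01 CPM, a log2 fold change of 0.73 ± 0.07 that is under the fold threshold.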
